A study of Mus musculus with 15 samples.

Results

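Gene expression was compared between mouse high-grade glioma (HGG) tissue labelled Sox9-LOF, for loss of Sox9 function, and HGG control tissue. The comparison uses 6 of the 15 libraries of the series, 3 per group, which share one deposited table of 24421 genes. The labels call every sample brain tumour tissue and give the genotypes as HGG control and HGG Sox9-LOF. They do not name the alleles that start the tumours, the means by which Sox9 function was removed, the strain, the sex or the age, and whether each replicate is its own animal is not told. P-values therefore measure the spread between these samples. The other 9 libraries are 3 HGG tumours with gain of Sox9 function (Sox9-GOF), 3 ependymoma (EPN) controls and 3 EPN tumours labelled Sox9-GOF, and they are used below only where a level needs a point of reference.

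SOX9 is a transcription factor of the SOX family, which binds DNA through an HMG box. In the developing brain it marks the switch of neural stem cells from making neurons to making glia, where it works with nuclear factor I (NFI) proteins, and in the adult it is kept in astrocytes. Outside the brain it is best known as the master regulator of cartilage, where it switches on collagen and proteoglycan genes. In gliomas it is widely expressed, and the title of the series concerns its part in directing the epigenome of brain tumour subtypes.

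Values below are normalised counts, that is, reads per gene over the size factor of the library, and they are given in the order of libraries 1, 2 and 3 of each group. Fold changes are on the scale of log2(normalised count + 1), labelled Sox9-LOF minus control, with the standard error (SE) and adjusted p of limma over the 14861 genes with a mean of at least 10.

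Sox9 (chromosome 11, 112782210 to 112787757, GRCm38) was read first, since it is the gene that the labels name. Its normalised count was 197, 262 and 283 in the controls against 665, 536 and 354 in the Sox9-LOF-labelled libraries. Every library labelled Sox9-LOF held more Sox9 transcript than every control, so the transcript was not lower under the label of lost function. How function was removed is not stated, so the transcript level cannot check the label, which is cited as such throughout. The log2 fold change was 1.03 (SE 0.29, limma adjusted p = 0.184), and an exact two-sided permutation test of 3 against 3 libraries gave p = 0.1, the smallest this design allows. DESeq2 called it (adjusted p = 0.0323) and so did limma with the spread of all 15 libraries (adjusted p = 0.0205). With all 15 libraries on one scale, Sox9 had 218, 285 and 310 in the HGG controls and 395 to 739 in the libraries labelled Sox9-LOF. It had 1275 to 1537 in HGG Sox9-GOF, 1040 to 1189 in the EPN controls and 1834 to 2692 in EPN Sox9-GOF. The HGG controls were thus the lowest of the 15 libraries, and the libraries labelled Sox9-LOF came next. A transcript level does not measure the SOX9 protein, which was not analysed here.

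Among the 16 tested genes of the SOX family, 1 lay higher in all 3 libraries labelled Sox9-LOF and 2 lay lower. Over all tested genes, 12.8% lay higher and 11.7% lay lower without overlap between the groups. Besides Sox9, the genes whose groups did not overlap were Sox3, a SoxB1 factor of neural progenitors, and Sox13, a SoxD factor. Sox3 had 532, 544 and 214 in the controls against 74.7, 192 and 63.9 (log2 fold change -2.01, SE 0.55, limma adjusted p = 0.175). Sox13 had 187, 309.6 and 103 against 69.5, 57.8 and 72.9 (-1.44, SE 0.43, adjusted p = 0.193). The SoxE relatives of Sox9 overlapped. Sox10, the factor of the oligodendrocyte lineage, had 6099, 7754 and 989 in the controls against 613, 1929 and 1373 in the Sox9-LOF-labelled libraries, so control 3 lay within the other group. Sox8 had 1375, 2828 and 855 against 975, 1134 and 1842. Of the 4 NFI genes, Nfib lay higher in all 3 libraries (578, 727 and 531 against 1128, 1287 and 777) and Nfic lower (976, 1679.9 and 907 against 667, 729.5 and 615), each with a change of less than 1 on the log2 scale (0.78, SE 0.25, limma adjusted p = 0.213, and -0.77, SE 0.28, adjusted p = 0.243). After correction for GC content and gene length Sox9 stood at 0.77, Sox3 at -1.15, Sox13 at -0.99, Nfib at 0.51 and Nfic at -0.13.

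**Figure D1:**
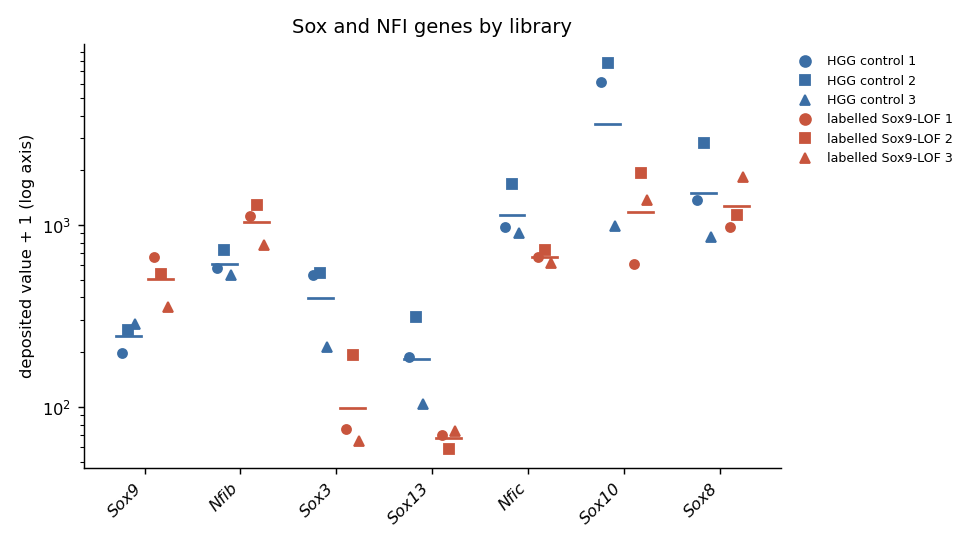
Normalised count + 1 (log axis) of 5 Sox genes and 2 NFI genes in each of the 6 libraries. Points are libraries, with the replicate number given by the symbol, and bars are means of the logarithms. Sox9 and Nfib are higher in all 3 libraries labelled Sox9-LOF, Sox3, Sox13 and Nfic are lower, and Sox10 and Sox8 overlap.

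The 6 libraries held 4665428 to 13830743 reads, the fewest in control 2. The libraries labelled Sox9-LOF resembled each other (Pearson r of 0.922 to 0.956 across genes), and the controls did not (0.797 to 0.843). Controls 2 and 3 each correlated more highly with all 3 libraries labelled Sox9-LOF (0.862 to 0.889) than with each other or with control 1. Control 1 stands apart by markers of the choroid plexus, the tissue that makes cerebrospinal fluid (summed count of 20 genes 126528, against 3766 and 2426 in controls 2 and 3, and 2614, 1609 and 33747 in the Sox9-LOF-labelled libraries), and control 2 by its lack of lymphocyte markers. Library sex also differs: Xist, the RNA of the inactive X, had 4442, 4251 and 2551 in the controls against 1.05, 4024 and 0 in the Sox9-LOF-labelled libraries, and the Y-linked Ddx3y had 0, 0 and 0 against 715, 1.05 and 915. The libraries labelled Sox9-LOF 1 and 3 thus carry the Y-linked pattern and the other 4 do not. Its part in the results was not tested.

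The GC content of genes moved with the comparison. Of 2780 tested genes with under 45% GC, 33.8% lay higher in all 3 libraries labelled Sox9-LOF and 1.26% lay lower, while of 3985 genes with 55% GC or more, 1.98% lay higher and 25.9% lower. Many fold changes are therefore also given after a correction of every library for GC content and gene length.

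No gene passed limma at an adjusted p of 0.05, the smallest adjusted p being 0.0569. At an unadjusted p under 0.05 there were 2564 genes, 17.3% of those tested, 1355 higher (9.12%) and 1209 lower (8.14%). edgeR called 0 genes and DESeq2 called 1339, 9.01% of those tested, of which 628 were higher (4.23%) and 711 lower (4.78%). When all 15 libraries informed the spread, limma called 1108. The words higher and lower below therefore describe the order of the libraries and not calls. List counts over all 6 libraries are to be read beside the 12.8% and 11.7% of all tested genes that lay higher and lower.

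The lowest p belonged to Scand1, a small SCAN-domain protein thought to act on zinc finger transcription factors (chromosome 2, 156311846 to 156312704). It had 651, 898 and 539 in the controls against 46.3, 54.7 and 38.9 in the Sox9-LOF-labelled libraries, a log2 fold change of -3.85 (SE 0.28, limma adjusted p = 0.0569, and -2.84 after GC correction). It passed limma among genes with a mean of at least 50 (adjusted p = 0.0465), with library weights (0.0247) and without control 2 (0.0488). With all 15 libraries on one scale, Scand1 had 721, 976 and 591 in the HGG controls and 65.8 to 91.9 in HGG Sox9-GOF. Among EPN libraries it had 81.1 to 181 in the controls and 174 to 310.5 in the Sox9-GOF libraries. The HGG controls were thus the highest of the 15 libraries, and the libraries labelled Sox9-LOF the lowest.

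For 2 other leading genes the HGG controls were again the highest of the 15 libraries. Zfp771, a zinc finger gene, had 289, 330.3 and 332 against 51.6, 63.1 and 60.9 (log2 fold change -2.42, SE 0.23, limma adjusted p = 0.11), and 70.2 to 92.5 in HGG Sox9-GOF on the joint scale. Erdr1 had 3849, 2969 and 2311 against 244, 576 and 582 (-2.77, SE 0.40, adjusted p = 0.138), and 266 to 727 in HGG Sox9-GOF on the joint scale. These comparisons share the HGG control libraries. Other genes with small limma p that were lower in all 3 libraries were Arhgef1, a signalling gene of immune cells (1273, 1267 and 1113 against 377, 343 and 382), Tcirg1, a subunit of the proton pump (1744, 1304 and 1388 against 439, 399 and 467), the histone gene H2afj (549, 772 and 568 against 165, 166 and 192) and the forkhead factor Foxp4 (522, 447 and 501 against 159, 181 and 153). Rhbdf2, which carries the protease that sheds TNF and EGF receptor ligands to the cell surface, had 344, 227 and 374 against 54.7, 69.4 and 69.9. These genes were picked for a small limma p and for groups that do not overlap, so their separation was set by that rule.

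Mir6236 and Lars2 belong to the same set, and both are known to collect reads of other origin: the annotated microRNA overlaps ribosomal RNA sequence and the mouse Lars2 gene holds a ribosomal RNA-like stretch. The mature sequence of Mir6236 is shown because it is the annotated product, with the seed (bases 2 to 8) in capitals, from RefSeq, GRCm38.p6, chromosome 9, plus strand.
mmu-miR-6236: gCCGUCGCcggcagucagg
Reads at Mir6236 were 1476, 2935 and 2549.9 in the controls against 178, 291 and 197 in the Sox9-LOF-labelled libraries (log2 fold change -3.35, SE 0.33, limma adjusted p = 0.11). A poly(A) library does not measure the mature microRNA. Lars2 had 6925, 8507 and 9031 against 2307, 3513 and 2617, and the ribosomal RNA precursor Rn45s, which overlapped between the groups, 8575, 24385 and 17043 against 8902, 8901 and 6384. Such reads can be signs of RNA or library quality, and their part in the other differences was not tested.

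Genes that were higher in all 3 libraries were led by Sv2c, a synaptic vesicle protein of basal ganglia neurons, with 23.6, 28.3 and 22.7 in the controls against 143, 192 and 259 in the Sox9-LOF-labelled libraries (log2 fold change 2.91, SE 0.33, limma adjusted p = 0.138, and 2.84 after GC correction). Kitl, the ligand of the KIT receptor, had 135, 92.5 and 209 against 707, 615 and 638 (2.23, SE 0.32, adjusted p = 0.138). Slc5a3, a myo-inositol transporter, had 198, 196 and 189 against 567, 815 and 997, and the nuclear receptor Rora 165, 157 and 201 against 615, 445 and 578. Rora has 50.2% GC, and its fold change was 1.64 before and 1.66 after GC correction. Others of the set lost much of their difference to that correction. Fmr1, the gene of fragile X syndrome, with 38.6% GC, had 284, 330.3 and 306 against 694, 901 and 886, which is 1.42 before and 0.67 after correction. Lrrc58 moved from 1.62 to 0.79 and Usp34, a ubiquitin protease, from 1.27 to 0.66.

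**Figure D2:**
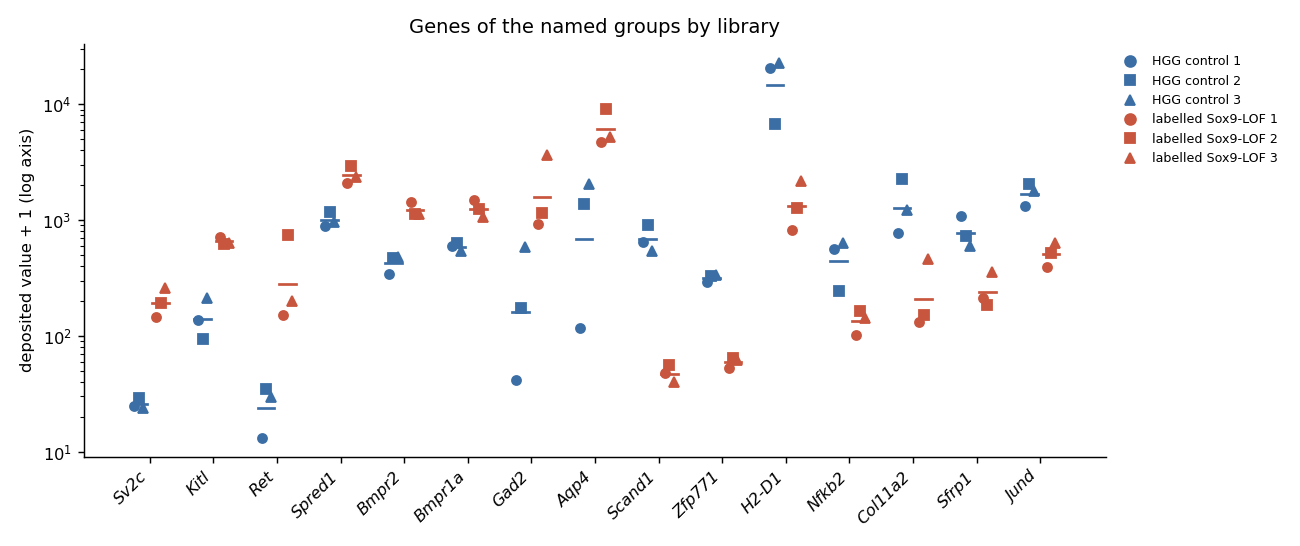
Normalised count + 1 (log axis) of 15 genes described in the text, in each of the 6 libraries. Points are libraries and bars are means of the logarithms. In each of these genes the 3 libraries labelled Sox9-LOF lie on one side of the 3 controls, 8 genes higher and 7 lower.

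Lymphocyte lists had the lowest medians of all the gene lists, and the MHC lists followed after the 3 tested transcripts listed as signs of RNA quality (median -1.55). Antigen presentation by MHC class I lets cytotoxic T cells read the proteins made inside a cell, and interferon and NF-kB, through sites near the start of these genes, raise it. The promoters of 2 class I heavy chain genes, of the shared light chain B2m and of the NF-kB subunit gene Nfkb2 are shown because the data bear on all 4. They run from 250 bases before the start site to 50 after it (RefSeq, GRCm38.p6, first listed start), 5′ to 3′ on the strand of the gene. Capitals mark matches on either strand to the NF-kB motif or to the IRF motif (GAAA, any 2 bases, GAAA), with overlapping matches merged.
H2-D1: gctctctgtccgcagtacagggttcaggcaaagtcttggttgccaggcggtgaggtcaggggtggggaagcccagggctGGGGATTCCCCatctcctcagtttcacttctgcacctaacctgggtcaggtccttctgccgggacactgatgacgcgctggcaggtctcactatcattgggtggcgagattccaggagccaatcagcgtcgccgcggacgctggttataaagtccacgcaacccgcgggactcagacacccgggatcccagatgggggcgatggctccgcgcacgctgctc
H2-K1: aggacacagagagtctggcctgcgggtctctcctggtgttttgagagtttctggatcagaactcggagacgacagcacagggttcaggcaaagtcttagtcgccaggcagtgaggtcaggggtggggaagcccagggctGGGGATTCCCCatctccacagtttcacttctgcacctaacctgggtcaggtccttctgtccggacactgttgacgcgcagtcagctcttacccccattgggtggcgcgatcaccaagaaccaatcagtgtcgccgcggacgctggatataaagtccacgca
B2m: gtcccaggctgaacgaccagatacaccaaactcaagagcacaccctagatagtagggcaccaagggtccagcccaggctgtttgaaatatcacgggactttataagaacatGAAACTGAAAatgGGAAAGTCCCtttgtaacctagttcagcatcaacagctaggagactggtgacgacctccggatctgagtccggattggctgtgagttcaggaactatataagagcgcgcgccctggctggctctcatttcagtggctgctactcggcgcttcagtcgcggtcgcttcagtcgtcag
Nfkb2: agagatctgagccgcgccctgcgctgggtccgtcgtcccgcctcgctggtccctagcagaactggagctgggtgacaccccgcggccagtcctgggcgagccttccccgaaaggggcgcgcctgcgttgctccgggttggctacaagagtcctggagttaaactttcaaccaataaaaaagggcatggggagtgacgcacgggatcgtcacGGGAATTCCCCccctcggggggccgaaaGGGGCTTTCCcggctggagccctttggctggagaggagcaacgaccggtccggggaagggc
They lie at chr17:35262844-35263143 (plus strand), chr17:34000298-34000597 (minus), chr2:122147437-122147736 (plus) and chr19:46304487-46304786 (plus). H2-D1 and H2-K1 hold the same run of letters at the NF-kB match, B2m holds 1 match of each motif, and Nfkb2 holds NF-kB matches only. Of all 27025 promoters of this length, 4.35% hold the NF-kB motif and 3.49% the IRF motif, and of 11231 promoters of tested genes 5.24% and 3.09%. Among 17 promoters of the tested MHC class I list 5 hold the NF-kB motif and 4 the IRF motif. Among 20 promoters of tested NF-kB list genes 11 hold the NF-kB motif, and among 23 of the interferon list 15 hold the IRF motif. A match is a description of letters and not of binding.

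Of the 22 tested MHC class I genes, 19 had a negative fold change, with a median of -1.14, against 0.01 over all tested genes, of which 50.7% were positive. Without overlap, 2 of the 22 lay lower and 2 higher. H2-D1, a classical class I heavy chain (chromosome 17, 35263094 to 35267497), had 20494, 6816 and 22832 in the controls against 826, 1273 and 2190.4 in the Sox9-LOF-labelled libraries (log2 fold change -3.48, SE 0.57, limma adjusted p = 0.143, and -3.33 after GC correction). All 3 controls were above all 3 libraries of the other group. The second classical heavy chain, H2-K1, had 38509, 6335 and 32262 against 5178, 6262 and 12836, and B2m had 34069, 10509.9 and 33969 against 8019, 9967 and 18315. For both, named after their values were seen, control 2 lay among the libraries labelled Sox9-LOF. The ratio of H2-D1 to H2-K1 was 0.532, 1.08 and 0.708 in the controls against 0.160, 0.203 and 0.171 in the Sox9-LOF-labelled libraries. In the other 9 libraries it was 0.180 in HGG Sox9-GOF library 2 and 0.395 to 0.689 in the remaining 8. Class I genes are near-identical copies whose reads counting may split, and they differ between mouse strains, so the level of a single class I gene is uncertain. The second gene that was lower without overlap was Psme2, a subunit of the immune proteasome activator (3371, 1070.2 and 2856 against 958, 1001 and 1038). The 2 that were higher were Canx, a chaperone of the endoplasmic reticulum (2974, 2752 and 2661 against 4349, 4769 and 5069), and the nonclassical H2-T24 (98.1, 139.7 and 189 against 267, 281 and 403).

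Lymphocyte genes were lower on average, and control 2 lay with the other group. All 22 tested T and NK cell genes had negative fold changes (median -2.17), as did all 14 tested B and plasma cell genes (median -2.88), yet 0 and 1 of them lay lower without overlap. The summed count of the T and NK genes was 3686, 117 and 6751 in the controls against 203, 316 and 878 in the Sox9-LOF-labelled libraries, and that of the B and plasma cell genes was 13141, 73.6 and 2133 against 85.3, 90.4 and 204. Controls 1 and 3 therefore held far more lymphocyte RNA than the other 4 libraries, and control 2 held the least. The B cell receptor partner Cd79a, for example, had 265, 7.55 and 270.2 against 5.26, 2.1 and 10.98. The T cell kinase Zap70 had 136, 7.55 and 218 against 4.21, 9.46 and 24.96. In bulk tissue, fewer cells of a type and less RNA per cell cannot be told apart.

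The MHC class II genes, which professional antigen-presenting cells use, had negative fold changes in 14 of 14 (median -1.20). Only Rfx5, a factor that binds their promoters, was lower without overlap (383, 298 and 338 against 266, 178 and 224). Of 31 interferon response genes 26 were negative (median -0.30), and 1 lay lower without overlap: Stat2, the interferon-activated transcription factor, with 2787, 1340.2 and 2751 against 780.1, 573 and 1148 (log2 fold change -1.44, SE 0.39, limma adjusted p = 0.174). Without control 2, a setting added after the values were seen, 20 of 22 MHC class I, 12 of 14 class II, 22 of 22 T and NK, 14 of 14 B and plasma cell and 18 of 31 interferon genes lay lower without overlap, where 19.6% of all tested genes did. Without control 1 these counts were 2, 2, 0, 1 and 2, where 17.3% of all genes lay lower, and without control 3 they were 2, 2, 0, 1 and 1, where 18.8% did.

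NF-kB genes were also mostly lower. Of 26 tested members, 21 had a negative fold change (median -0.82), 7 lay lower without overlap and 2 higher, beside 11.7% and 12.8% of all tested genes. The 7 include every subunit gene but Rel. Nfkb2, the p100 precursor of the noncanonical arm, had 567, 245 and 634 in the controls against 101, 164 and 143 in the Sox9-LOF-labelled libraries (log2 fold change -1.73, SE 0.41, limma adjusted p = 0.154). Its partner Relb had 365, 185 and 426 against 87.4, 165 and 89.9 (-1.48, SE 0.42, adjusted p = 0.180). In the canonical arm Nfkb1 had 634, 570.0 and 718 against 314, 374 and 451 (-0.76, SE 0.21, adjusted p = 0.181), and Rela 674, 846 and 565 against 299, 529 and 372 (-0.82, SE 0.28, adjusted p = 0.226). After GC correction Nfkb2 stood at -1.31, Nfkb1 at -0.73 and Rela at -0.29. The other 3 were the inhibitor Nfkbib, the A20 partner Tnip1 and Map3k14, the kinase of the noncanonical arm. The 2 that were higher were the subunit gene Rel (15.8, 9.44 and 24.6 against 32.6, 28.4 and 31.9) and the chemokine Cxcl2, which was low throughout (3.58, 0 and 2.59 against 39.0, 16.8 and 4.99). The lymphocyte marker sums given above were also highest in controls 1 and 3, and their part in the NF-kB values was not tested.

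**Figure D3:**
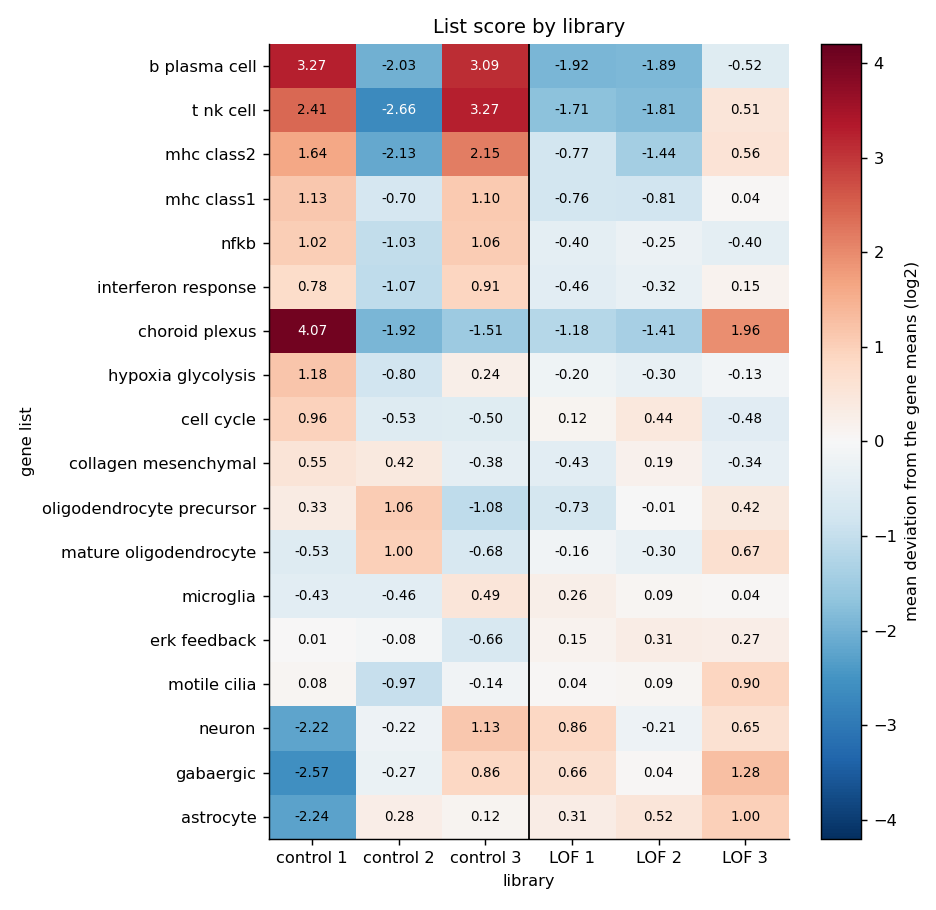
Score of 18 gene lists in each library, which is how far log2(normalised count + 1) of the tested members lay, on average, from the mean of each gene in these 6 libraries. Lymphocyte and MHC class II scores are high in controls 1 and 3 and lowest in control 2, the choroid plexus score is 4.07 in control 1 and 1.96 in the library labelled Sox9-LOF 3, and astrocyte, neuron and GABAergic scores are lowest in control 1.

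Myeloid markers showed no shift of the whole lists. Of 23 microglia genes 11 were positive and 12 negative (median -0.10). Without overlap 4 lay higher and 0 lower, beside 12.8% and 11.7% of all tested genes. Gpr34, a lysophosphatidylserine receptor of homeostatic microglia, had 10.03, 60.4 and 13.6 against 491, 225 and 144 (log2 fold change 3.56, SE 0.76, limma adjusted p = 0.144, and 2.75 after GC correction). The purine receptor P2ry12 had 76.7, 298 and 264 against 459, 414 and 579, the homeostatic factor Sall1 273, 362 and 502 against 547, 618 and 621, and Olfml3 378, 325 and 386 against 538, 777 and 423. On the joint scale Gpr34 had 105 to 557 in HGG Sox9-GOF and 385 to 485 in the EPN controls, so the HGG controls were the lowest of the 15 libraries. Of 21 genes of activated and border macrophages, 2 lay higher and 1 lower, among them the lipoprotein lipase gene Lpl (80.2, 119 and 209 against 493, 608 and 371; log2 fold change 1.92, SE 0.39, limma adjusted p = 0.143) and the cystatin Cst7, which was lower (309, 162 and 1958 against 136, 157 and 153).

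Astrocyte genes were higher on average. All 24 had positive fold changes (median 1.15, and 1.16 after GC correction), and 5 of the 24 lay higher without overlap. Aqp4, the water channel of astrocyte end-feet, had 115, 1382 and 2033 in the controls against 4715, 9166 and 5205 in the Sox9-LOF-labelled libraries (log2 fold change 3.14, SE 1.04, limma adjusted p = 0.217). Slc4a4, a bicarbonate transporter, had 67.3, 861 and 704 against 2289.8, 1573 and 2221, and the gap junction gene Gja1 60.2, 744 and 903 against 1501, 1375 and 2619.7. Its partner Gjb6 had 15.04, 160.4 and 247 against 547, 267 and 875. Gfap, the filament gene of reactive astrocytes, had 4629, 12588 and 18887 against 33009, 37138 and 18885, where the library labelled Sox9-LOF 3 lay just below control 3. Control 1 was the lowest library for each of these genes. Without control 1 the median of the list was 0.19 and the same 5 genes lay higher, where 18.8% of all tested genes did. The count was 10 without control 2 and 9 without control 3, where 17.8% and 20.9% of all genes lay higher. The summed astrocyte count was 32013, 114969 and 105913 in the controls against 120758, 147035 and 162910.3 in the Sox9-LOF-labelled libraries.

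Neuronal genes followed control 1 as well. Of 24 neuron genes 23 were positive (median 0.71), and the 2 without overlap were Map2, a dendritic microtubule protein (1848, 2722 and 3758 against 6992, 4354 and 6031; log2 fold change 1.09, SE 0.34, limma adjusted p = 0.200), and the RNA-binding protein gene Elavl4 (125, 196 and 373 against 662, 440.5 and 484). All 18 GABAergic genes were positive (median 1.18), and 2 lay higher without overlap. These were the enzymes that make GABA: Gad2 had 40.8, 174 and 584 against 918, 1145 and 3677 (3.27, SE 0.99, adjusted p = 0.199) and Gad1 105, 679.5 and 1320.3 against 1712, 1500.1 and 3807. The same 2 genes of each list were found without control 1, but the medians were then 0.13 for neuron and 0.20 for GABAergic genes. Without control 3 the medians were 1.66 and 2.16, and 11 of 24 and 10 of 18 lay higher. The share of all tested genes that lay higher was 12.8% with all controls, 18.8% without control 1 and 20.9% without control 3. The forebrain factor Six3, which acts in striatal development, had 29.4, 3.78 and 11.7 against 34.7, 52.6 and 237 (2.65, SE 0.95, adjusted p = 0.243). The amounts of normal brain in each piece of tissue were not measured, and their part in the astrocyte and neuron results was not tested.

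Genes of motile cilia, the beating cilia of ependymal cells, were positive in 19 of 25 (median 0.56), and 4 lay higher and 1 lower without overlap. Rfx3, a regulator of cilia genes, had 136, 121 and 161 against 287, 231 and 258 (log2 fold change 0.89, SE 0.23, limma adjusted p = 0.166). Hydin, a part of the central apparatus, had 6.45, 3.78 and 8.42 against 23.2, 13.7 and 22.96, the adenylate kinase gene Ak7 20.1, 5.66 and 18.1 against 31.6, 35.7 and 68.9, and Tmem212 0, 1.89 and 12.3 against 19.0, 23.1 and 40.9. Zmynd10, an assembly factor of dynein arms, was lower (60.9, 32.1 and 36.3 against 20.0, 15.8 and 21.96). Without control 1 the count that lay higher was 13 of 25 and the median 1.17, without control 3 the count was 7, and without control 2 the median was 0.04. The shares of all tested genes that lay higher without control 1 and without control 3 were 18.8% and 20.9%. Choroid plexus genes had a median of -0.55 and, without control 1, of 1.298. In 2 of those 20 genes all 3 libraries labelled Sox9-LOF were below every control: Sostdc1, a secreted BMP and WNT antagonist (314, 831 and 122 against 12.6, 17.9 and 90.9; log2 fold change -3.47, SE 0.93, adjusted p = 0.174), and the homeobox gene Msx1, a BMP target (96.0, 5.66 and 11.7 against 2.11, 3.15 and 4.99).

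Lineage genes of oligodendrocytes and of neural stem cells went both ways. Precursor genes were negative in 10 of 16 (median -0.55, and -0.34 after GC correction). Genes of mature oligodendrocytes were negative in 10 of 16 (median -0.09), and neural stem genes positive in 11 of 18 (median 0.48). In each list 0 lay lower without overlap, where 11.7% of all tested genes lay lower and 12.8% higher. Of 16 precursor genes 1 lay higher without overlap, the phosphatase gene Ptprz1 (5169, 5949.6 and 3191 against 6329, 6838 and 8973), whose difference vanished with GC correction (0.66 before, -0.07 after). Of 16 genes of mature oligodendrocytes 1 did, the cytoskeletal gene Ermn (18.6, 389 and 341 against 674, 491 and 1197). Of 18 neural stem genes 2 did: Fam107a, a marker of outer radial glia that adult astrocytes also express (143, 861 and 1601 against 2345, 2359.9 and 4903), and the receptor gene Lifr (153, 321 and 255 against 395, 346 and 404).

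**Figure D4:**
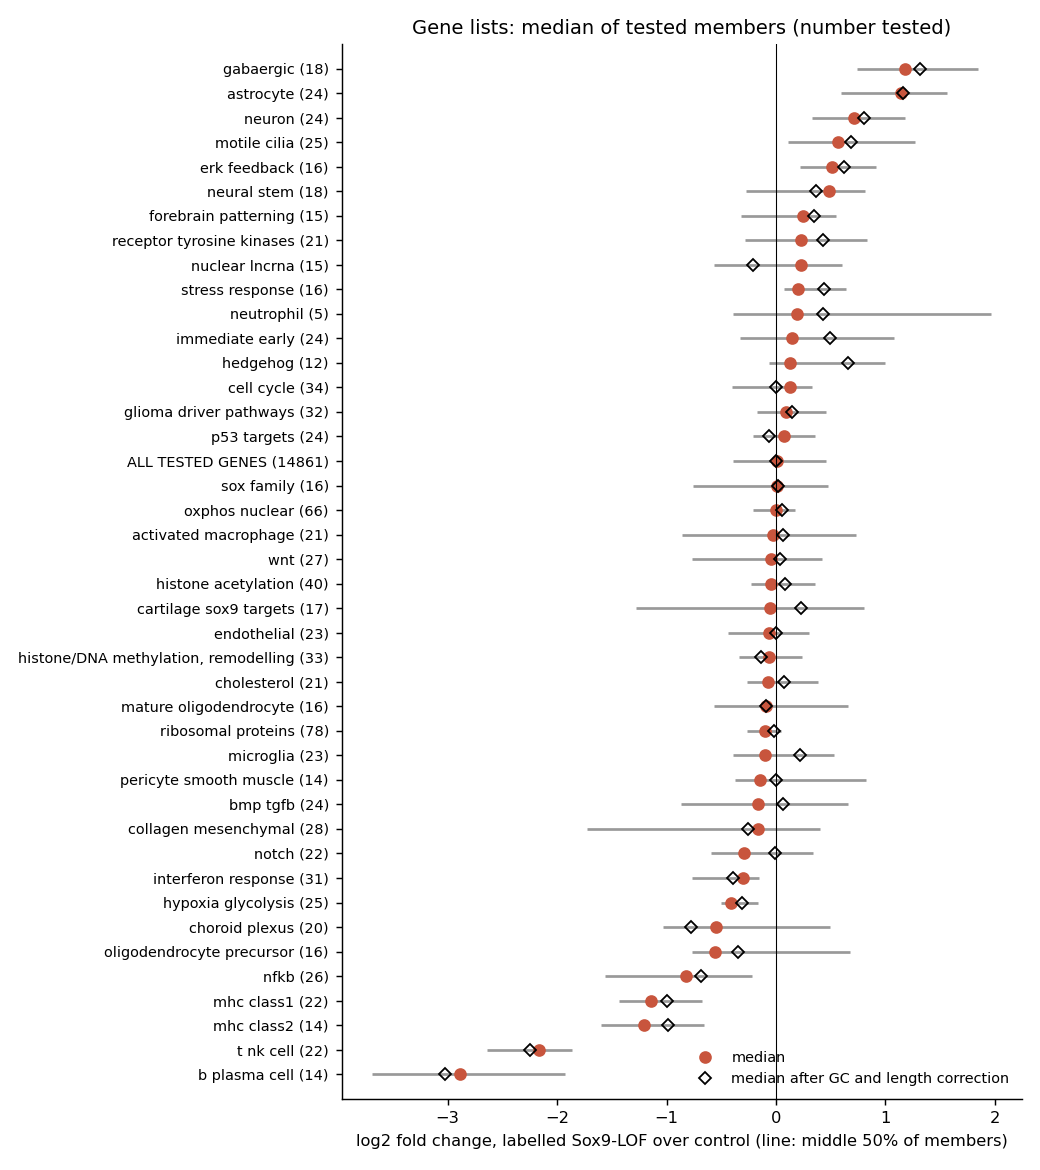
Median log2 fold change of the tested members of the gene lists, without the sex-linked and RNA quality lists and those with under 5 tested members, labelled Sox9-LOF over control, without (filled) and with (open) correction for GC content and gene length. Lines span the middle 50% of members. Of the lists drawn, lymphocyte and MHC lists lie lowest, GABAergic and astrocyte lists highest, and all tested genes have a median of 0.01.

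Receptor tyrosine kinases pass signals of growth factors through RAS to ERK, and ERK in turn raises inhibitors of the same chain, the Spry and Spred genes. Of 21 tested receptor genes, 3 lay higher and 1 lower without overlap, beside 12.8% and 11.7% of all tested genes. Ret, the receptor for ligands of the GDNF family (chromosome 6, 118151748 to 118197744), had 12.2, 34.0 and 28.5 in the controls against 152, 735 and 201 in the Sox9-LOF-labelled libraries (log2 fold change 3.57, SE 0.68, limma adjusted p = 0.143, DESeq2 adjusted p = 2.77e-05). On the joint scale Ret had 83.7 to 172 in HGG Sox9-GOF. Erbb4, a neuregulin receptor, had 13.6, 34.0 and 30.4 against 152, 71.5 and 126 (2.15, SE 0.49, adjusted p = 0.148), and Ddr2, a collagen receptor, 703, 476 and 289.6 against 995, 961 and 789.7. Its relative Erbb2 was lower (102, 430.4 and 71.9 against 59.0, 47.3 and 37.9).

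Feedback genes of ERK were positive in 13 of 16 (median 0.52, and 0.63 after GC correction), and 5 of the 16 lay higher and 0 lower without overlap. Spred1, an inhibitor of RAS and partner of the NF1 protein, had 895, 1170.3 and 963 against 2069, 2951 and 2365 (log2 fold change 1.28, SE 0.22, limma adjusted p = 0.143, and 0.67 after GC correction). Spry2 had 591, 755 and 469 against 1058, 1209 and 1034 (0.89, SE 0.23, adjusted p = 0.170), and Spred2 206, 362 and 239.7 against 414, 551 and 494 (0.88, SE 0.27, adjusted p = 0.200). The ETS factor Etv1 had 511, 434 and 265 against 723, 741 and 856, and the FGF antagonist Il17rd 61.6, 66.1 and 64.1 against 94.8, 97.8 and 99.8. Without control 3, which was the lowest library of this list, the median was 0.23 and the count without overlap 5. Without control 1 it was 9 and without control 2 it was 8. Over all tested genes the share that lay higher was 12.8% with all controls, and 18.8%, 17.8% and 20.9% without control 1, 2 and 3.

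Of 32 genes of pathways often altered in glioma, 7 lay higher and 3 lower without overlap, beside 12.8% and 11.7% of all tested genes. Atrx, a chromatin remodeller, had 766, 785 and 678 against 1607, 1219 and 1363 (log2 fold change 0.90, SE 0.19, limma adjusted p = 0.143), and Pik3r1, a regulatory subunit of PI3 kinase, 1090.4, 1638 and 1217 against 2054, 2537 and 2522 (0.86, SE 0.23, adjusted p = 0.174). Both have a GC content under 45%, and after correction they stood at 0.39 and 0.62. Of the suppressors that glioma models often lack, Nf1 had 359, 495 and 417 against 543, 389 and 695 and Trp53 818, 351 and 496 against 300.0, 467 and 204. Both overlapped between the groups, and a transcript does not show whether a gene is intact. The p53 target Cdkn1a, the cell cycle inhibitor p21, had 342, 157 and 354 against 489.5, 1331 and 1607 (1.92, SE 0.53, adjusted p = 0.176), while of 24 p53 target genes 2 lay higher and 3 lower.

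BMP and TGF-beta ligands signal through pairs of type I and type II receptors to SMAD proteins, and BMP signalling favours astrocyte fate in neural precursors. The 24 tested genes had a median of -0.17, with 7 higher and 2 lower without overlap. All 7 are receptors or SMADs. Bmpr2, the type II BMP receptor, had 342, 466 and 479 in the controls against 1429, 1121 and 1126 in the Sox9-LOF-labelled libraries (log2 fold change 1.52, SE 0.22, limma adjusted p = 0.138). The type I receptor Bmpr1a had 595, 627 and 542 against 1477, 1245 and 1060.3 (1.09, SE 0.20, adjusted p = 0.143), and Bmpr1b 50.9, 168 and 141 against 282, 251 and 446 (1.56, SE 0.50, adjusted p = 0.205). After GC correction they stood at 0.77, 0.90 and 1.35. The receptors Acvr1 (201, 232 and 235 against 334, 292 and 274) and Tgfbr1 (439.9, 374 and 532 against 674, 632 and 814) and the BMP-responsive SMAD genes Smad1 and Smad5 were higher by less than 1 on the log2 scale. The 2 genes that were lower were Tgfbr2, the type II TGF-beta receptor (547, 1257 and 943 against 446, 414 and 445; -0.99, SE 0.32, adjusted p = 0.207), and the BMP antagonist Nog (33.7, 64.2 and 42.1 against 30.5, 9.46 and 30.0). The count that lay higher was 7 without control 1, 8 without control 2 and 8 without control 3, where 18.8%, 17.8% and 20.9% of all tested genes did, against 12.8% with all controls.

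In the hedgehog pathway 4 of 12 genes lay higher and 0 lower, beside 12.8% and 11.7% of all tested genes. Of the 12, 8 were positive and 4 negative (median 0.13, and 0.66 after GC correction). Gli3, which acts mainly as a repressor of the pathway, had 35.8, 24.5 and 49.2 against 104, 61.0 and 103 (log2 fold change 1.28, SE 0.41, limma adjusted p = 0.205). The coreceptor Cdon had 53.01, 88.7 and 68.0 against 217, 117 and 94.8, the ligand-binding inhibitor Hhip 26.5, 86.8 and 52.5 against 109, 93.6 and 201, and the activator Gli2 12.9, 54.7 and 45.3 against 56.9, 70.4 and 83.9. All 4 are of low to moderate level. Gli1 (5.73, 66.1 and 27.9 against 8.42, 9.46 and 203) and Ptch1 (139, 260 and 192 against 279, 242 and 566) overlapped between the groups.

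WNT genes went both ways, 4 higher and 4 lower of 27 (median -0.04), beside 12.8% and 11.7% of all tested genes. Sfrp1, a secreted WNT inhibitor, had 1073, 729 and 593 against 209.5, 185 and 355 (log2 fold change -1.69, SE 0.34, limma adjusted p = 0.143, and -1.89 after GC correction). The target genes Sp5 (20.8, 71.7 and 35.6 against 1.05, 6.31 and 3.00), Tcf7 (206, 155 and 108 against 66.3, 96.7 and 49.9) and Axin2 (214, 736 and 288 against 214, 105 and 212) were lower too, Axin2 by a margin of less than 1 count. The 4 that were higher were the receptor Fzd3 (339.6, 502 and 486 against 1129.6, 791 and 1120.2), the stem cell receptor Lgr5, the secreted inhibitor Wif1 and Ctnnb1, which encodes beta-catenin. In the NOTCH pathway 2 of 22 lay higher and 1 lower, among them the coactivator Maml2 (185, 211 and 188 against 464, 359.5 and 277) and the glycosyltransferase Rfng, which was lower (683, 1140.1 and 823 against 423, 603 and 422).

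Genes that write, erase or read histone acetylation were examined because the series concerns epigenomic states. Of 40 tested, 5 lay higher and 4 lower, with a median of -0.05, shares close to the 12.8% and 11.7% of all tested genes. Gatad2b, a subunit of the NuRD deacetylase complex, had 81.7, 73.6 and 67.4 in the controls against 186, 178 and 228 in the Sox9-LOF-labelled libraries (log2 fold change 1.39, SE 0.24, limma adjusted p = 0.143, and 1.33 after GC correction). Hdac4 had 78.8, 100.04 and 82.3 against 224, 124 and 223 (1.08, SE 0.32, adjusted p = 0.193), and the acetyltransferase gene Kat6a 575, 691 and 439 against 935, 907 and 1000.4 (0.76 before and 0.15 after GC correction). The corepressor Ncor1 and the acetyltransferase gene Crebbp were also higher. Those that were lower were Hdac10 (208, 308 and 180.1 against 101, 68.3 and 77.9; -1.46, SE 0.30, adjusted p = 0.143), the acetyltransferase gene Kat2a (895, 978 and 829.9 against 584, 532 and 437), the NuRD gene Mta1 (1084, 1108 and 851 against 565, 672 and 454) and Hdac7. The 4 have a GC content over 55%, and after correction they stood at -1.13, -0.47, -0.50 and -0.72.

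Of 33 genes of histone methylation, DNA methylation and chromatin remodelling, 3 lay higher and 6 lower, beside 12.8% and 11.7% of all tested genes. The H3K4 methyltransferase genes differed in direction: Kmt2b (908, 1008 and 617 against 422, 471 and 462) and Setd1a (694, 723 and 577 against 398, 403 and 427) were lower and Kmt2c was higher (310.2, 453 and 379.6 against 667, 536 and 981). Their fold changes of -0.87, -0.69 and 0.90 became -0.49, -0.25 and 0.47 with GC correction. The H3K9 methyltransferase gene Ehmt2 stood at -0.64 before and -0.05 after it.

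The cartilage genes that SOX9 is known to switch on had a median of -0.05. Of 17, 0 lay higher and 2 lower, beside 12.8% and 11.7% of all tested genes. Col11a2, a chain of cartilage collagen, had 764, 2246 and 1219 in the controls against 131, 150.3 and 458 in the Sox9-LOF-labelled libraries (log2 fold change -2.61, SE 0.59, limma adjusted p = 0.145, and -2.12 after GC correction). Chadl, a matrix protein related to chondroadherin, had 543, 1518 and 257 against 65.3, 199.7 and 135 (-2.29, SE 0.70, adjusted p = 0.200, and -1.46 after GC correction). Of 28 collagen and mesenchymal genes 4 lay lower and 0 higher, beside the same 11.7% and 12.8%. The 4 were Col1a1 (346, 1148 and 241 against 93.7, 105 and 158), Col1a2 (643, 6808 and 516 against 166, 141 and 461), Col5a1 (423, 2012 and 496 against 222, 252 and 168) and Col4a2. Control 2 was the highest library for these 4 collagen genes, and without it the fold change of Col1a2 was -1.38 in place of -2.56.

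Among noncoding RNAs, Neat1, the scaffold of paraspeckles, had 12616, 2682 and 3017 against 1197, 856 and 1282 (log2 fold change -2.09, SE 0.60, limma adjusted p = 0.185). Rmst, a neural RNA that binds SOX2, had 5.01, 7.55 and 10.4 against 34.7, 32.6 and 57.9 (2.31, SE 0.52, adjusted p = 0.145). The immediate early list had 2 of 24 lower and 0 higher. Jund, of the AP-1 family, had 1312, 2039 and 1776 against 392, 519 and 636 (-1.73, SE 0.27, adjusted p = 0.143), with 67.1% GC and -0.82 after correction. Fosb, by contrast, reached 3394 in the library labelled Sox9-LOF 3 and 8.6 to 126 in the other 5. The summed count of the list was 12032, 12835 and 11181 in the controls against 6370, 11553 and 44217 in the Sox9-LOF-labelled libraries. Of its 24 genes 14 were positive and 10 negative (median 0.15).

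Lists of general cell functions were also read. None of 34 cell cycle genes and none of 25 hypoxia and glycolysis genes lay apart without overlap in either direction, although 21 of the latter were negative (median -0.42). Without control 1 the hypoxia median turned to 0.0919, and without control 2 14 of the 25 lay lower, where 19.6% of all tested genes did. Of 78 ribosomal protein genes 2 lay higher and 7 lower, and of 66 nuclear genes of oxidative phosphorylation 10 and 9, beside 12.8% and 11.7% of all tested genes. Endothelial genes had 0 higher and 2 lower of 23, pericyte genes 0 and 0 of 14, cholesterol genes 1 and 1 of 21 and stress response genes 0 and 2 of 16. Yet 13 of the 16 stress response genes were positive (median 0.20). The heat shock gene Hspa1a had 555, 353 and 247 against 121, 1614 and 11740, highest in the library labelled Sox9-LOF 3. Of 13 neutrophil genes 5 and of 9 red cell genes 2 reached the mean of 10.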

How the data were processed

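Poly(A) RNA of frozen brain tumour tissue was sequenced from stranded mRNA libraries, per the labels' protocols. The deposited values are a signal: the authors' read counts over 1 size factor per library. The values themselves show it, since every value is a whole multiple of one step per library (tolerance 0.001). The submitters' processing notes name mm10, STAR 2.5.0a, DESeq2 1.30.1, FastQC 0.11.7 and MultiQC 1.11. Counting tool, annotation and strand setting were not stated in them, so overlapping or antisense genes and near-identical copies are uncertain.

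Values were tested as log2(value + 1) with limma 3.58.1 (trend, Benjamini-Hochberg adjustment at 0.05) for the genes whose mean reached 10. edgeR 4.0.16 and DESeq2 1.42.0 in R 4.3.3 were run on the recovered reads. The fits were tested on simulated data. GC content and length were removed from each library in an alternative fit. The rule for named genes took Sox9, Sox genes without overlap, Sox8 and Sox10, in each direction the 12 genes of smallest limma p without overlap and with a mean of 100 or more (predicted models left out), up to 4 members of smallest p per list, and Nf1, Trp53, Xist, Ddx3y, Rn45s, Lars2, Mir6236 and Scand1. Some are not reported here. H2-K1, B2m and further list members were named after their values were seen. The gene lists, their members and these rules were chosen with earlier results of these data known. Leaving out single controls for list counts was added after seeing the data. Joint-scale levels put all 15 libraries on one size factor scale. Promoters and the microRNA come from RefSeq, GRCm38.p6.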

Additional observations from a re-analysis of the deposited data

How the results depend on the processing

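Of 3005 values of 159 named genes under the alternatives, 2801 kept direction and side of the threshold, 193 were past it and 11 reversed. The number of genes called was 0 in limma and edgeR, 1339 with DESeq2, 1108 with the spread of 15 libraries, 327 with that of the 9 HGG libraries, 1 with a mean of at least 50 and 1 with library weights, and 0 to 6 when 1 library was left out (6 without control 2). Sox9 was past the threshold with DESeq2 (1.06) and with the spread of 15 libraries (1.04), and its fold change was 0.83 to 1.28 with 1 library left out. The replicate numbers do not pair the samples (correlations of -0.1413, 0.0731 and 0.1987), and with the replicate block 0 genes were called and Sox9 stood at 1.03 (limma adjusted p = 0.3). Genes without overlap numbered 3640, and 4339 to 5887 with 1 library left out. With GC correction, with or without the block, Sox8 (0.37), Ptprz1 (-0.0666), Pik3ca (-0.0787), Nf1 (-0.13) and Atp5d (0.0126) reversed, and Sox8 also without control 2 (range with 1 library left out -0.64 to 0.22). Of 42 list medians, 27 changed sign under at least 1 alternative, in 63 of 420 values, of which 55 moved by less than the spread between replicates. The other 8 were in 5 lists, which include BMP and TGF-beta (0.06 with GC correction, and -0.30 to 0.0846 with 1 library left out, positive without control 1 and without the library labelled Sox9-LOF 1) and histone acetylation (0.0797 with GC correction). With 1 library left out, forebrain medians ran from -0.24 (without control 1) to 0.31, microglia from -0.22 to 0.43 (without control 3) and pericyte from -0.38 to 0.24 (without control 1, and 0.17 without the library labelled Sox9-LOF 2). The cause of these shifts was not tested.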

Other observations

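Genes were also read by position, in windows of 10 neighbouring tested genes, with GC-corrected fold changes. The highest median was 1.501 on chromosome X from Rps6ka6 to Cldn34c1. The lowest medians were -1.83 on chromosome 6 from Clec9a to Klra2, a stretch of lectin receptor genes of immune cells, and -1.44 on chromosome 17 from Psmb9 to Btnl2, in the MHC. In each of these low windows 0 of 10 genes lay lower without overlap, where 11.7% of all tested genes did. Over 495 tested genes of chromosome X the median was 0.38 before and 0.14 after correction, where the sex-linked transcripts of the libraries also differ.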
